A study of Rattus norvegicus with 9 samples.

Results

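The genes described here mark GABAergic interneurons, the inhibitory local-circuit neurons of the forebrain. The 10 genes were chosen by name: Gad1, Gad2, Pvalb, Sst, Cort, Npy, Vip, Calb2, Reln and Lamp5. They were chosen because Cort and Lamp5 were among the lowest genes of the ischemic brain in these same arrays, so the I/R versus Sham values below are a description and carry no test. The 10 genes were read by 12 of the 30367 probes of the array, and each gene was represented by its brighter probe.

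Total RNA came from the infarcted hemisphere of male Sprague Dawley rats at day 14, with 1 array per rat. Of the 9 rats, 3 were sham-operated (Sham), 3 had the middle cerebral artery occluded for 2 h and then reperfused (I/R, labelled model), and 3 had the same occlusion and reperfusion followed by daily tail-vein Danhong injection, a preparation of Salvia miltiorrhiza and Carthamus tinctorius (DHI, labelled DH). Sham rats received an equal volume of solvent. The tissue held many cell types, and how much of the hemisphere each sample covered is not stated. Fewer interneurons, less RNA per interneuron and a different share of regions or of other cells therefore cannot be told apart.

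GABA is made from glutamate by 2 glutamate decarboxylases, GAD67 (Gad1) and GAD65 (Gad2), which all GABAergic neurons use. Cortical and hippocampal interneurons fall into classes named after what else they make: the calcium-binding protein parvalbumin in fast-spiking basket and chandelier cells, somatostatin in dendrite-targeting cells, vasoactive intestinal peptide and calretinin in cells that mostly inhibit other interneurons, and reelin and LAMP5 in neurogliaform cells. Gad1 and Gad2 are also abundant in striatal projection neurons, calretinin in other forebrain neurons, and rodent Lamp5 in some excitatory neurons, so the list is not exclusive to interneurons.

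Values are log2 intensities relative to the 75th percentile of the same array, so 0 is that percentile and 1 unit is a 2-fold difference. Levels of different probes are not comparable with each other. All 10 representative probes were well above background on all 9 arrays, and 23747 probes were tested in all. The 9 arrays had 75.2% to 78.9% of probes well above background and no saturated spots among those used. The Sham and I/R arrays shared slide 1 and the DHI arrays were on slide 2, so slide and DHI cannot be told apart in any comparison with DHI. Replicate 1 of the DHI group (DHI 1) stood apart from DHI 2 and DHI 3, and the comparisons with DHI are given with and without it.

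Every one of the 10 genes had a lower mean in I/R than in Sham. The median difference over the 10 was -2.36 on the log2 scale, against -0.10 over all probes tested. With an unadjusted p under 0.05 and a fold change over 1.5, the thresholds of the study, 9 of the 10 passed as lower (limma), and 22.3% of all probes passed as lower and 20.8% as higher. With Benjamini-Hochberg adjustment 6 of the 10 passed as lower, against 15.1% of all probes lower and 16.4% higher. In 8 of the 10 the I/R arrays all lay below the Sham arrays, as they did for 35.8% of all probes. Cort and Lamp5, whose low values led to the choice of the list, are among the genes in each of these counts. The counts are therefore a description, and nothing is read from them.

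**Figure D1:**
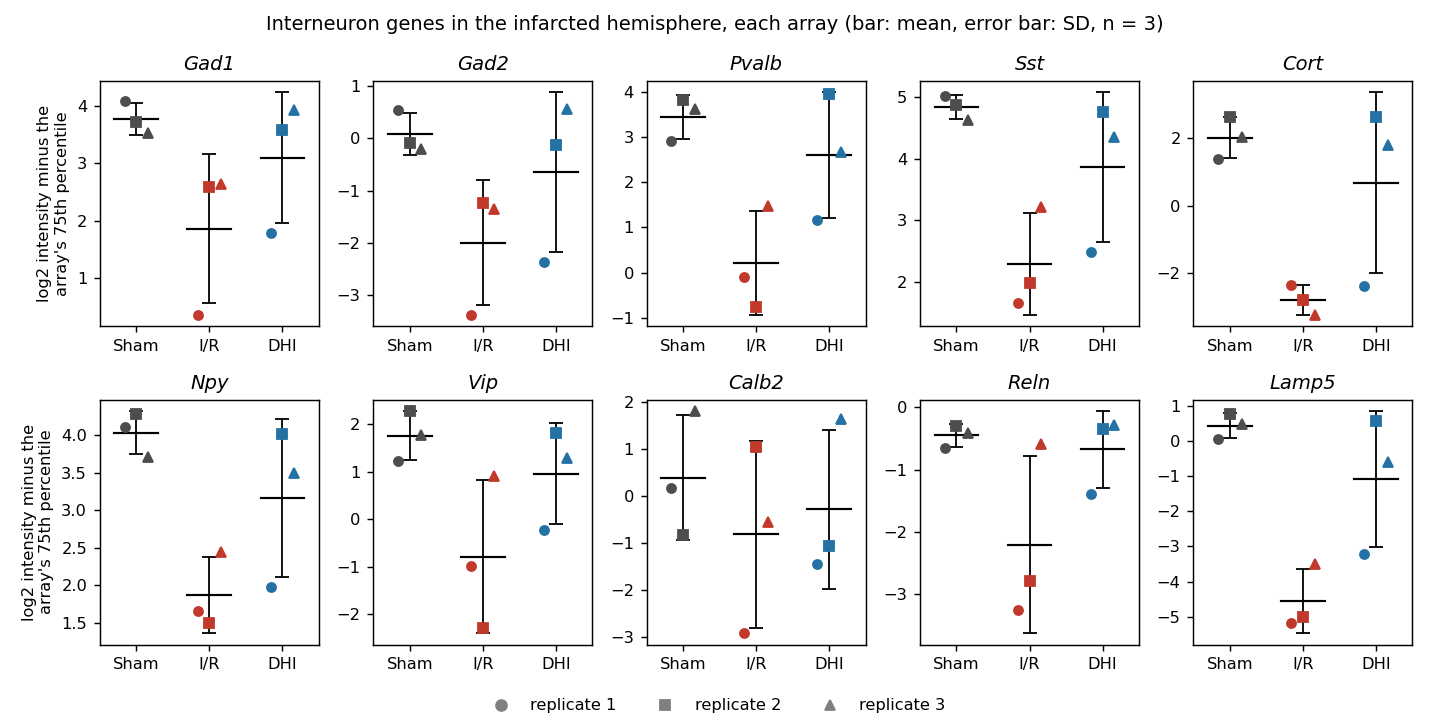
The log2 intensity of the 10 genes relative to the 75th percentile of each array (y axis, a separate scale per gene) by group, with 1 point per array, the mean as a bar and the SD as an error bar (n = 3). The circle of the DHI group (DHI 1) is the lowest DHI point in all 10 panels, and the I/R points of Cort and Lamp5 lie far below all Sham points.

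Lamp5 encodes a lysosome-associated membrane protein of neurons that is used as the marker of neurogliaform interneurons. Its probe and that of Cort are printed here because these 2 genes had the largest differences of the 10. Both lie in protein-coding sequence and are given 5′ to 3′ in the sense of the mRNA, and in the Cort probe capitals mark bases 32 to 46, the codons of the core that cortistatin shares with somatostatin.
Lamp5 probe (rn4, chr3:124129498-124139728, + strand): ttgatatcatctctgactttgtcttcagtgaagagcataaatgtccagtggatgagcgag
Cort probe (rn4, chr5:166199061-166199120, - strand): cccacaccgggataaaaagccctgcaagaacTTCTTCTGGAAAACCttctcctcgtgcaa
The Lamp5 probe is 60 bases long and its coordinates span 10231 bases, so it crosses at least 1 intron.

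Lamp5 read 0.06, 0.77 and 0.47 in Sham 1, 2 and 3, and -5.17, -5.00 and -3.50 in I/R 1, 2 and 3. In DHI 1, 2 and 3 it read -3.22, 0.58 and -0.59. The Sham and I/R arrays lay more than 3 units apart, DHI 2 lay inside the Sham range, and DHI 1 stayed closer to I/R than to Sham while lying above all 3 I/R arrays. The I/R mean was 31.8-fold lower than the Sham mean (-4.99 on the log2 scale, SE 0.90), and only 4 of the 23747 probes had a lower value in this contrast.

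Cort encodes cortistatin, a peptide related to somatostatin that is made by a subset of GABAergic neurons of cortex and hippocampus. It read 1.39, 2.63 and 2.03 in Sham 1, 2 and 3. It read -2.34, -2.79 and -3.22 in I/R 1, 2 and 3. It read -2.36, 2.63 and 1.78 in DHI 1, 2 and 3. Its 3 I/R arrays were the tightest of the 10 genes (SD 0.44), DHI 1 was level with them, and DHI 2 and DHI 3 were at the upper edge of the Sham range and inside it, more than 4 units above DHI 1. The I/R mean was 27.9-fold lower than the Sham mean (-4.80, SE 1.14), with 5 probes lower.

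Sst encodes somatostatin, the peptide closest to cortistatin. It read 5.02, 4.87 and 4.63 in Sham 1, 2 and 3, and 1.66, 1.99 and 3.22 in I/R 1, 2 and 3. It read 2.49, 4.76 and 4.36 in DHI 1, 2 and 3. No I/R array reached the Sham range, and the mean difference of -2.55 (SE 0.62) was a 5.86-fold lower level, next to the 27.9-fold of Cort.

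Sst and Vip are textbook targets of the cyclic AMP response element, to which CREB binds, so the windows around their annotated starts (250 bases before to 50 after, RefSeq, GRCr8) were searched on both strands for TGACGTCA and for its part TGACGT. A window was found for 9 of the 10 genes, all but Calb2. TGACGTCA occurred in Sst alone of the 9 and in 1.83% of all 33469 windows, and TGACGT in Sst and Vip and in 7.94% of all windows. The 30 bases around each match are shown with the match in capitals.
Sst (GRCr8, chr11:90461537-90461566, + strand): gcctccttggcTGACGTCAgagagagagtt
Vip (GRCr8, chr1:44470371-44470400, + strand): ggatcaccactgTGACGTctttcgaggagc
The Sst match begins 2 bases after the annotated start and the Vip match 97 bases before it. A match of letters does not show binding, and nothing in these arrays measures it.

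Vip encodes vasoactive intestinal peptide. It read 1.23, 2.28 and 1.79 in Sham 1, 2 and 3, and -0.99, -2.29 and 0.91 in I/R 1, 2 and 3. It read -0.21, 1.82 and 1.29 in DHI 1, 2 and 3. The I/R arrays spread over more than 3 units, with I/R 3 just under the lowest Sham array, and the mean difference was -2.56 (SE 0.82).

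Npy encodes neuropeptide Y, which is made by neurogliaform cells and by many somatostatin cells. It read 4.12, 4.28 and 3.71 in Sham 1, 2 and 3, and 1.66, 1.5 and 2.44 in I/R 1, 2 and 3. It read 1.98, 4.02 and 3.49 in DHI 1, 2 and 3. All I/R arrays were below all Sham arrays, with a mean difference of -2.17 (SE 0.51), and a second, dimmer Npy probe gave -2.18.

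Pvalb encodes parvalbumin. It read 2.91, 3.84 and 3.63 in Sham 1, 2 and 3, and -0.10, -0.75 and 1.48 in I/R 1, 2 and 3. It read 1.17, 3.97 and 2.67 in DHI 1, 2 and 3. The groups Sham and I/R did not overlap and differed by -3.25 (SE 0.77), or 9.5-fold, the third largest difference of the 10.

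Gad1 read 4.09, 3.72 and 3.53 in Sham 1, 2 and 3, and 0.36, 2.58 and 2.64 in I/R 1, 2 and 3. It read 1.79, 3.58 and 3.92 in DHI 1, 2 and 3. I/R 1 stood more than 2 units below the other I/R arrays, and the mean difference from Sham was -1.92 (SE 0.73), with -2.19 for a second, dimmer probe. Gad2 had the same shape, with 0.54, -0.09 and -0.20 in Sham, -3.39, -1.25 and -1.36 in I/R and -2.36, -0.13 and 0.57 in DHI, and a mean difference of -2.08 (SE 0.82). Both genes were highest in Sham 1 among Sham arrays and in DHI 3 among DHI arrays. The summed level of 9 striatal projection neuron markers was also highest there, at 49.8 in Sham 1 and 44.5 in DHI 3 (75th percentile = 1), against 3.24 to 11.4 in the other 7 arrays. The part of this in the Gad1 and Gad2 values was not tested.

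Reln encodes reelin, a secreted glycoprotein that in the adult is made mainly by interneurons. It read -0.65, -0.30 and -0.41 in Sham 1, 2 and 3, the smallest spread of the 10 genes (SD 0.18). It read -3.25, -2.78 and -0.59 in I/R 1, 2 and 3. It read -1.39, -0.36 and -0.28 in DHI 1, 2 and 3. I/R 3 lay inside the Sham range while the other 2 I/R arrays were more than 2 units lower, so the mean difference of -1.75 (SE 0.65) came from 2 of 3 rats.

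Calb2 encodes calretinin and was the one gene with wide spread in every group. It read 0.17, -0.83 and 1.82 in Sham 1, 2 and 3, then -2.93, 1.04 and -0.55 in I/R 1, 2 and 3. It read -1.45, -1.06 and 1.65 in DHI 1, 2 and 3. The groups overlapped throughout, and the differences from Sham (-1.2 in I/R, SE 1.2, and -0.67 in DHI, SE 1.2) were no larger than their standard errors. The homeobox gene Dlx1, a transcription factor of ventral forebrain GABAergic cells, also stood high in I/R 2, at 0.95 against -2.78 and -0.82 in I/R 1 and I/R 3.

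To set the genes against the general GABAergic marker, each value was taken relative to Gad1 on the same array, with the Sham mean as 0. Gad2 followed Gad1 on every array, from -0.46 on DHI 1 to 0.34 on DHI 3, and averaged -0.16 ± 0.13 (SD, n = 3) in I/R. Lamp5 averaged -3.08 ± 1.05 in I/R, with -2.18, -4.24 and -2.80 on I/R 1, 2 and 3, all lower than any Sham array. Cort averaged -2.89 ± 1.71, with -3.62 and -4.10 on I/R 2 and 3 and -0.94 on I/R 1, level with the lowest Sham value of -0.93. The means of Pvalb (-1.33 ± 1.5), Sst (-0.64 ± 0.96), Vip (-0.64 ± 1.94) and Npy (-0.26 ± 1.21) were smaller than or close to their SD, and Reln (0.16 ± 1.14) and Calb2 (0.71 ± 0.98) were above 0. Lamp5 and Cort were chosen for their low I/R values, so these differences are a description.

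**Figure D2:**
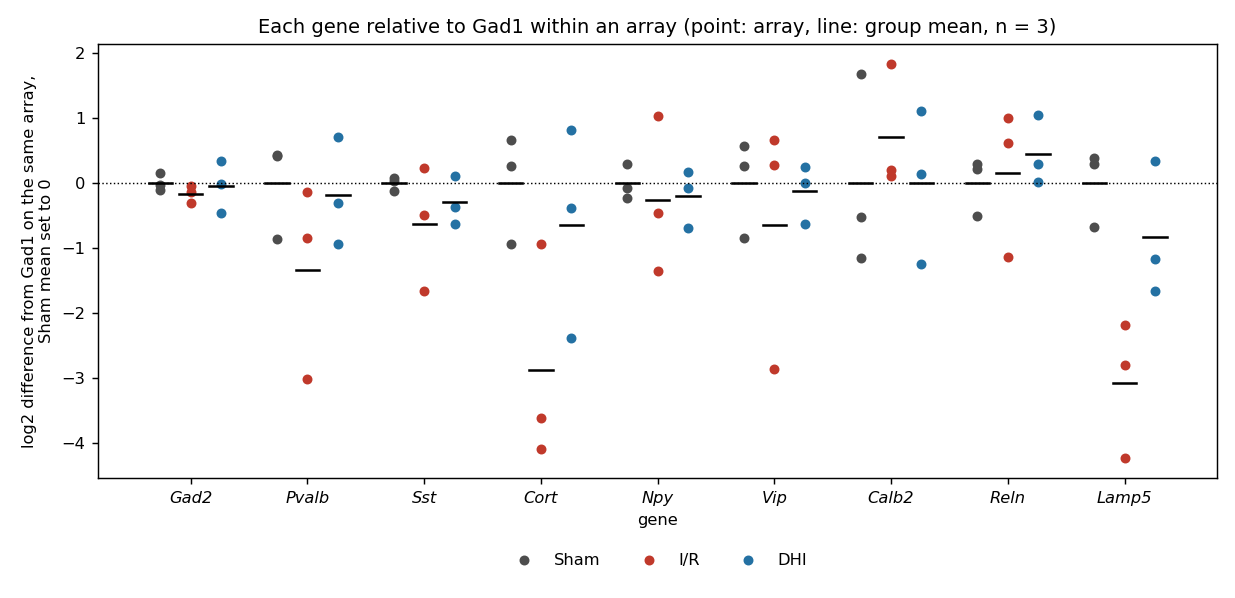
The log2 difference of 9 genes from Gad1 on the same array, with the Sham mean of each gene set to 0 (y axis), for Sham, I/R and DHI arrays (points) with the group mean as a line (n = 3). Gad2 stays near 0 in all groups, while the I/R means of Cort (-2.89) and Lamp5 (-3.08) lie furthest below it.

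The comparison of DHI with I/R asks whether the levels differed in treated rats. It was not the contrast used to choose the genes, but it uses the same I/R arrays, whose low values drew attention to them. All 10 genes had a higher mean in DHI, with a median difference of 1.55 on the log2 scale against 0.10 over all probes. The thresholds of the study were passed by 6 genes as higher (Pvalb, Sst, Cort, Npy, Reln and Lamp5) and by none as lower. Of all probes 11.5% passed as higher and 10.5% as lower. None of the 10 passed Benjamini-Hochberg adjustment (limma, adjusted p 0.196 to 0.765, with 6 of 10 at an unadjusted p under 0.05), and 1 of the 23747 probes did. With the methods' t-test, 1 of the 10 passed the study thresholds, Lamp5, beside 1.97% of all probes in either direction.

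Lamp5 was 11.2-fold higher in DHI than in I/R (3.48, SE 0.90, adjusted p = 0.196, limma), and it was the single gene of the 10 whose DHI arrays all lay above all I/R arrays, as 5.51% of all probes did. Cort was 11.1-fold higher (3.47, SE 1.14, adjusted p = 0.196) with DHI 1 inside the I/R range. Only 4 and 5 of the 23747 probes had a higher value than these 2 genes. Both were chosen for low values on these same I/R arrays, which by itself raises their DHI versus I/R differences. Their ranks and p-values in this contrast, with or without DHI 1, are therefore a description. Pvalb was 5.25-fold higher (2.39, SE 0.77), Sst 2.99-fold (1.58, SE 0.62), Reln 2.88-fold (1.53, SE 0.65) and Npy 2.46-fold (1.30, SE 0.51). The differences of Vip (1.75, SE 0.82), Gad2 (1.35, SE 0.82), Gad1 (1.24, SE 0.73) and Calb2 (0.53, SE 1.2) did not pass.

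The counts moved with single arrays. DHI 1 was the lowest DHI array for 10 of 10 genes, below every Sham array for 10 and within the I/R range for 9. DHI 2 was above every I/R array for 9 genes and DHI 3 for 10. The same counts were not made over all probes, so nothing particular to the 10 genes is read from them. Without DHI 1 the median difference of the 10 was 2.24, and without I/R 3 it was 2.19, against 1.55 with all arrays. Without DHI 1, 9 of the 10 passed the study thresholds and 6 passed adjustment, with Lamp5 at 4.55 (adjusted p = 0.00255) and Cort at 4.99 (adjusted p = 0.00141), while the share of all probes that passed in either direction went from 21.9% to 45.2% and with adjustment from 0.00421% to 40.1%. Without I/R 3, 7 of the 10 passed the study thresholds beside 32.5% of all probes. The count was 2 without DHI 2, DHI 3 or I/R 2 (3.95%, 4.75% and 6.99% of all probes) and 3 without I/R 1 (5.82%), so calls over the whole array moved together with those of the 10 genes. Pvalb and Lamp5 were the genes that passed without DHI 2 and without DHI 3, Cort and Lamp5 without I/R 2, and all 3 of these without I/R 1.

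**Figure D3:**
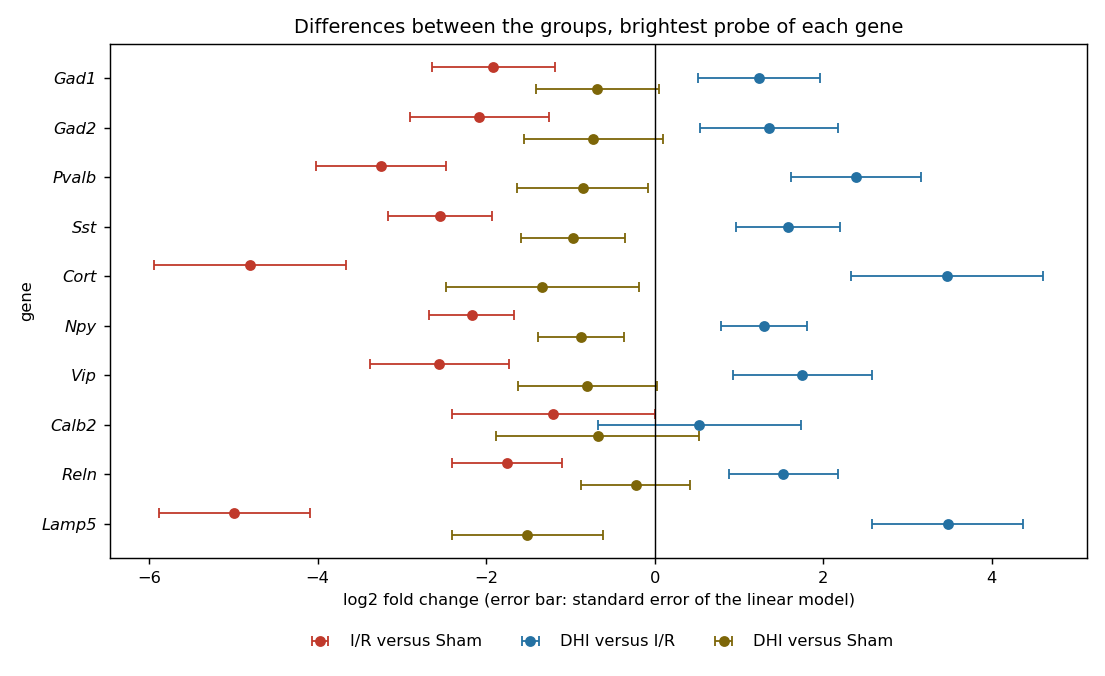
The log2 fold change of each gene (x axis) for I/R against Sham, DHI against I/R and DHI against Sham, with the standard error of the linear model as error bars (3 arrays per group). All I/R versus Sham points lie left of 0 and all DHI versus I/R points right of it, with Cort and Lamp5 at both extremes.

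The levels in DHI and Sham were compared as well, over the same Sham arrays. All 10 genes had a lower mean in DHI, between -0.22 (Reln) and -1.51 (Lamp5), with a median of -0.83 against 0.02 over all probes. None of the 10 passed the study thresholds (limma, adjusted p 0.709 to 0.882, with 0 of 10 at an unadjusted p under 0.05), while 1.06% of all probes passed as lower and 2.52% as higher. The spread in DHI was wide (median SD over the 10 genes 1.31, against 0.38 in Sham), and a p that misses the threshold does not show that the levels were alike. Without DHI 1 the median difference of the 10 was -0.12.

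Of 5 genes of GABA transport and breakdown, 4 had a lower mean in I/R than in Sham and 1 a higher mean, with a median of -0.63. By the thresholds 2 passed as lower and 1 as higher, where 22.3% and 20.8% of all probes did. Nothing is read from these counts. The vesicular GABA transporter Slc32a1 differed by -1.73 (SE 0.71) and the GABA transaminase Abat by -1.10 (SE 0.34). Slc6a13, a GABA transporter known from the meninges, was higher in I/R (2.15, SE 0.70) and lower in DHI than in I/R (-1.85, SE 0.70, adjusted p = 0.196, limma). Of the 5, Slc6a13 was the one gene that passed the study thresholds in DHI versus I/R, where 10.5% of all probes passed as lower.

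Of 12 listed interneuron transcription factors 9 were tested, and 3 passed as lower and 1 as higher in I/R versus Sham (median -0.60). Among all probes 22.3% passed as lower and 20.8% as higher, so nothing is read from these counts. Satb1, needed for maturation of somatostatin and parvalbumin cells, differed by -2.22 (SE 0.64), Lhx6, which specifies those cells, by -1.65 (SE 0.53) and Npas1 by -1.63 (SE 0.58). Nr2f2, a nuclear receptor of caudally born interneurons that is also used by venous endothelium, was higher (1.74, SE 0.62). In DHI versus I/R, Satb1 (1.72) and Npas1 (1.39) passed the study thresholds as higher and Nr2f2 (-1.63) as lower, and none passed adjustment. Among all probes 11.5% passed as higher and 10.5% as lower there.

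Of 22 further interneuron markers 18 were tested, and 13 passed as lower and none as higher in I/R versus Sham, with a median of -1.69. The shares over all probes were 22.3% lower and 20.8% higher. The synaptic vesicle calcium sensor Syt2, typical of parvalbumin terminals, differed by -4.00 (SE 0.72), and the fast-spiking potassium channel subunits Kcnc1 by -3.05 (SE 0.79) and Kcnc2 by -2.85 (SE 0.71). The stress peptide Crh differed by -3.06 (SE 0.64), its binding protein Crhbp by -3.22 (SE 0.67) and the peptide Cck by -2.19 (SE 0.68). With limma, 9 of these 18 passed the study thresholds as higher in DHI versus I/R, beside 11.5% of all probes. Their median was 1.13 and none passed adjustment. With the methods' t-test far fewer probes of the array passed in this contrast (1.97% in either direction, against 21.9%). The largest differences of the 9 were those of Syt2 (2.63, SE 0.72) and Crhbp (2.29, SE 0.67).

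The receptors of the peptides are carried by other neurons and by other cell types. Of 12 listed receptor names 10 were tested, and 7 passed as lower in I/R versus Sham: the somatostatin receptors Sstr1 to Sstr4 (-2.29, -2.22, -2.24 and -1.76), the neuropeptide Y receptors Npy1r (-2.55) and Npy5r (-2.71), and Vipr1 (-2.18). Ppyr1, the pancreatic polypeptide receptor (1.37), and Vipr2 (0.72) passed as higher. The shares over all probes were 22.3% lower and 20.8% higher. In DHI versus I/R, Sstr3, Npy5r and Vipr1 passed the study thresholds as higher (1.67, 1.82 and 1.49) and Ppyr1 as lower (-1.05), where 11.5% and 10.5% of all probes did. Of 5 reelin receptors and adaptors the receptor Vldlr (-1.23, SE 0.21) and the adaptor Dab1 (-1.18, SE 0.34) passed as lower in I/R versus Sham, and both passed the study thresholds as higher in DHI versus I/R (0.68 and 0.79). The other reelin receptor Lrp8 differed by -0.40 (SE 0.24) in I/R versus Sham.

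The lower levels were not shown to be particular to interneurons. In I/R versus Sham the median over 10 pan-neuronal genes was -2.45, with 10 of 10 passing as lower, and over 9 glutamatergic neuron genes -2.81, with 9 of 9, beside -2.36 for the 10 interneuron genes. The brightest were Eno2 and Snap25 among the pan-neuronal genes (-1.84 and -3.0) and Nrgn and Neurod2 among the glutamatergic ones (-3.55 and -2.05). The median over 9 striatal projection neuron genes was -1.77, with 3 passing as lower. Over all probes 22.3% passed as lower. In DHI versus I/R the medians were 1.70 for the pan-neuronal and 1.91 for the glutamatergic genes, with 8 of 10 and 7 of 9 passing the study thresholds as higher. Over all probes 11.5% did. The differences of Cort (-4.80) and Lamp5 (-4.99) were outside the range of the pan-neuronal genes (-3.04 to -1.66) and of the glutamatergic genes (-3.55 to -1.35). Pvalb (-3.25) was outside the first alone, and the other 7 were not below either range. Cort and Lamp5 were chosen for their low I/R values. Their place outside these ranges follows from that choice and does not set them apart from other neuronal genes.

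**Figure D4:**
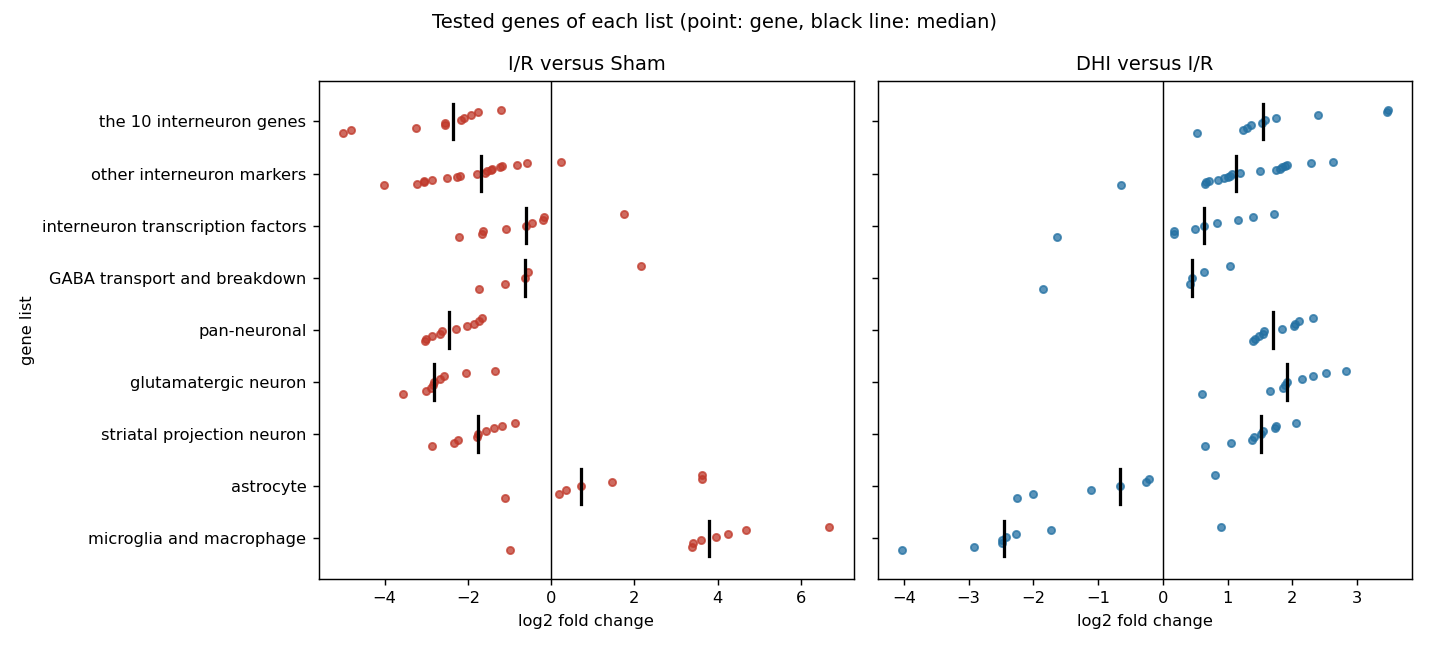
The log2 fold change of each tested gene (points) and the median (black line) for the 10 interneuron genes and 8 other gene lists, for I/R against Sham (left) and DHI against I/R (right, 3 arrays per group). Of the 10 interneuron genes, Cort and Lamp5 lie beyond both the pan-neuronal and the glutamatergic list on the side away from 0 and Calb2 on the side near 0, and the microglia and macrophage list lies on the other side of 0 apart from 1 gene. Cort and Lamp5 were chosen for their low I/R values.

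Markers of other cell types moved with the arrays. Sums of intensities are weighted to the brightest probes of a list and say little of its dimmer genes. The summed level of the 10 interneuron genes was 75.9 to 91.2 in Sham, 9.60, 16.4 and 27.6 in I/R 1, 2 and 3, and 17.4, 84.2 and 65.3 in DHI 1, 2 and 3. The summed level of 8 microglia and macrophage genes was 12.2 to 14.0 in Sham, 243.6, 193.6 and 86.4 in I/R 1, 2 and 3, and 130.7, 16.8 and 20.2 in DHI 1, 2 and 3. Thus I/R 1 had the lowest interneuron and the highest microglial sum, and DHI 1 was in the I/R range for microglial genes while DHI 2 and 3 were near Sham. In I/R versus Sham 7 of the 8 microglial genes passed as higher, with the brightest, C1qa and Tyrobp, at 3.97 and 4.25. The exception, named after its value was seen, was Cx3cr1 at -1.0. The sum of 10 pan-neuronal genes was 33.6 in DHI 1 against 105.2 and 78.4 in DHI 2 and 3. The sum of 7 astrocyte genes was 60.9 to 67.9 in Sham and 90.9 to 124.6 in I/R, and that of 6 oligodendrocyte genes was 142.3 to 165.9 in Sham and 110.1 to 160.6 in I/R. The 4 choroid plexus genes summed to 0.46 to 1.01 in Sham, 1.29 to 93.6 in I/R and 7.50 to 137.0 in DHI, so they varied most between arrays of one group. In the smaller lists of other regions and cells, the thresholds were passed in I/R versus Sham by 2 of 3 thalamus, 2 of 7 hypothalamus and 2 of 5 endothelial genes as higher, by 1 of 3 olfactory bulb genes as lower and by 0 of 4 cerebellum genes (limma, 1 of 4 at an unadjusted p under 0.05). Over all probes 20.8% passed as higher and 22.3% as lower in that contrast. The part of these cell types and of the dissected tissue in the interneuron values was not tested.

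**Figure D5:**
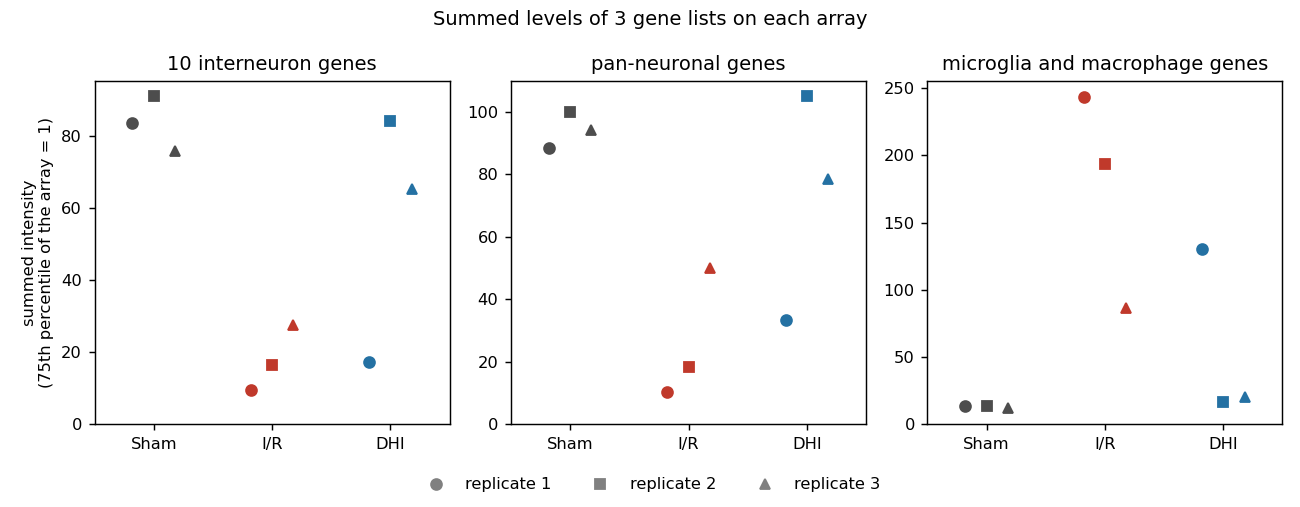
The summed intensity (75th percentile of the array = 1) of the 10 interneuron genes, of 10 pan-neuronal genes and of 8 microglia and macrophage genes on each array (points, replicates by symbol). DHI 1 sits at 17.4, 33.6 and 130.7 in the 3 panels, in or near the range of the I/R arrays, and DHI 2 and DHI 3 sit near Sham.

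The genes whose profiles over the 9 arrays were closest to 3 of the members were found by the root mean square difference of centred log2 values, over genes with an official-style symbol. Those closest to Gad1 were Eml5 (0.13), Slc32a1 (0.18) and Kcnh2 (0.22), with Gad2 next (0.22). Those closest to Lamp5 were Cyp11b1 (0.30), Egr4 (0.41) and Cabp1 (0.46). Those closest to Cort were Enthd1 (0.61), Cyp11b1 (0.69) and Kcns1 (0.72), a looser match, and none of the I/R arrays had Enthd1 well above background.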

How the data were processed

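RNA of 9 rats was hybridised to 1-colour Agilent arrays, and the authors' scanner files (Agilent Feature Extraction 10.7.1.1 per the labels) hold deposited intensities, background-subtracted but not scaled between arrays. Outlier spots and control spots were left out, spots of a probe averaged, and log2 values taken relative to the 75th percentile of each array. The authors' deposited log2 table was used as an alternative. A probe was tested if every array of some group had it well above background. limma 3.58.1 in R 4.3.3 fitted 3 group means over all 9 arrays, with Benjamini-Hochberg adjustment over all 23747 probes. The scripts were tested on simulated data. Counts use an unadjusted p under 0.05 with a fold change over 1.5, the thresholds of the study. The replicate numbers of the labels did not pair the arrays. The number of arrays limits the precision. A p-value sets a difference against the spread between rats, estimated over all groups together. In the comparisons with DHI that difference includes any effect of the slide.

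The members, the other gene lists and the tests were chosen with earlier results of these data known. Gene names are those of the array design. All 10 members were named, with any tested gene of the 5 lists of interneuron function, the 2 brightest genes of other lists where named, and the 3 closest profiles to Gad1, Cort and Lamp5. Names such as LOC or RGD numbers were passed over in the last. A gene was represented by its probe with the highest mean intensity. The array files give probe positions on rn4, and RefSeq gave windows on GRCr8. Alternatives covered the scaling, background correction, filter, samples in the fit, array weights, replicate block, test and each array left out. Of the listed genes, 1 is not reported here.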

Additional observations from a re-analysis of the deposited data

How the results depend on the processing

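The 10 genes kept their direction, I/R against Sham and DHI against I/R, under every alternative run except Calb2. In I/R versus Sham 9 of 10 were called lower under each of the alternatives other than the methods' t-test (6) and the arrays left out (6 to 9). The share of all probes called in either direction was 36.1% to 54.7%, 39.8% and 31.7% to 48.6% in these fits, against 43.1% as reported. The count called in DHI versus I/R, 6 as reported, was 3 without scaling, 3 with only the 2 groups compared in the fit, 1 with the methods' t-test and 2 to 9 with 1 array left out, and the share of all probes called was 31.3%, 9.05%, 1.97% and 3.95% to 45.2%, against 21.9%. With array weights 9 genes were called in this comparison, beside 49.8% of all probes. The count passing adjustment in I/R versus Sham, 6 as reported, was 0 without scaling and 0 to 8 with 1 array left out (0% to 43.2% of all probes). It was 0 without Sham 1, 2 or 3, I/R 1 or 2, or DHI 3. In each fit with 0 at most 1 probe of all passed, against 7471 as reported, and without scaling the adjusted p was 0.0520 for Lamp5 (-4.80) and Cort (-4.60). For DHI against I/R the count passing adjustment was 0 as reported and 0 to 6 with 1 array left out (0% to 40.1% of all probes). It was 9 with array weights, which ran from 0.098 (DHI 1) to 4.78 (DHI 3) and called 49.3% of all probes. In DHI versus Sham the count, 0 as reported (3.58% of all probes), was 1 without scaling (7.11%) and 2 with array weights (14.9%). With 1 array left out it was 0 to 2 (1.45% to 10.6%), and the 2 came without DHI 2 (10.6%). Array weights turned Calb2 in I/R versus Sham (0.0076), and Gad1 (0.16), Gad2 (0.48), Calb2 (0.86) and Reln (0.084) in DHI versus Sham. With 1 array left out, DHI versus Sham ranged from -1.33 to 0.13 for Gad2, from -2.30 to 0.19 for Cort and from -0.42 to 0.13 for Reln, turning without DHI 1, and from -1.64 to 0.041 for Calb2, turning without Sham 3, while Calb2 in DHI versus I/R ranged from -0.53 without I/R 1 to 1.45 without I/R 2, and was -0.44 without DHI 3. The cause of these changes was not tested. Without scaling the median of all probes in DHI versus I/R was -0.36, against 1.09 for the 10 genes. Arrays with the same replicate number did not vary together (4 of 9 pairs over 0.1, range -0.34 to 0.48, and not every array fitted its own number best). With a replicate block 9, 6 and 0 genes were called in the 3 comparisons, beside 43.8%, 26.6% and 5.39% of all probes. With that block 8 genes passed adjustment in I/R versus Sham, beside 35.5% of all probes, against 31.5% as reported. The array weights were fitted gene by gene, because the likelihood fit did not converge. The precision was limited by 3 arrays per group, with a median SD over the 10 genes of 1.18 in I/R and 1.31 in DHI.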
